A study of Mus musculus with 12 samples.

Results

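The regions described here are the m6A peaks annotated to a 3' UTR whose 3' edge is not the annotated end of the gene. A peak was counted when the deposited annotation was 3' UTR, a gene was named, and the peak's downstream edge, read on the gene's own strand, differed from the gene's annotated end by at least 1 base. The rule used positions and annotation and no measured value. It found 28917 of the 77835 peaks in 2 deposited lists, with 15206 of 41153 in the Mettl3 knockout (KO) list and 13711 of 36682 in the wild-type (WT) list. They made up 71.9% of the 3' UTR peaks of the KO list (95% Wilson interval 71.3 to 72.5%) and 70.5% of those of the WT list (69.8 to 71.1%). These intervals cover the counting of peaks only.

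N6-methyladenosine (m6A) is a methyl mark on adenosines inside mRNA. METTL3 is the catalytic subunit of the nuclear complex that writes it, METTL14 and WTAP are partners in that complex, FTO and ALKBH5 remove the mark, and YTH-domain proteins bind it. In mammalian mRNA the mark is known to gather around the stop codon and in the 3' UTR, the part of the message that also carries binding sites for microRNAs, decay factors and the cleavage and polyadenylation machinery. One gene can have several 3' UTRs, because transcripts can end at different poly(A) sites or use different last exons, so a 3' UTR of a short transcript can lie well inside the annotated gene.

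The cells were BV2, an immortalised mouse microglial line. The groups were Mettl3 KO cells and WT cells, all treated with bacterial lipopolysaccharide (LPS), a ligand of the receptor TLR4, so that no group lacked LPS. Each genotype had 3 m6A antibody pull-downs (IP) and 3 input libraries, 12 libraries in all. The labels do not say how the knockout was made or whether it is 1 clone. The 2 lists hold 1 value per peak and genotype and none per library. The spread between replicates and the depth are therefore unknown here, no test between genotypes could be made, and every difference below compares 2 lists and has no replicate check. Less m6A on an RNA and a change in the amount of that RNA or of the cells that hold it cannot be told apart from these values.

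The labels name microglial cells, but their RNA extraction text names neuroblastoma cells, so markers were looked up. Of 14 microglia and macrophage markers, 13 had a peak in the KO list and 13 in the WT list, among them Csf1r, Cx3cr1, Trem2, Tmem119 and Aif1. Of 10 neuron and neuroblastoma markers, Tubb3 alone had a peak, in both lists. None of 6 astrocyte markers had one. Of 6 oligodendrocyte markers, Mbp and Cnp had a peak in both lists, and of 6 fibroblast and endothelial markers, none had a peak in the KO list and Pecam1 had one in the WT list. Presence of a peak is no level of RNA. The part that cell identity may have in the results was not tested.

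The targeted gene itself carried peaks of this kind in both lists. Mettl3 (ENSMUSG00000022160, chr14:52294841-52305128, minus strand) had 4 of them in the KO list and 2 in the WT list. The strongest lay at chr14:52301301-52303977 in both lists, with the same edges, 6460 bases upstream of the gene end. Its log2 of IP over input was 2.07 in the KO list and 1.57 in the WT list. A second peak near the gene end, at chr14:52295679-52296732 in the KO list and chr14:52295754-52296607 in the WT list, had 0.77 and 0.69. So these 2 peaks of the targeted gene had the higher value in the KO list. Its peak reaching the gene end, which is not of this kind, was lower there, with 0.75 in KO and 0.79 in WT. An enrichment over input does not measure the amount of Mettl3 RNA, and the lists do not show which part of the gene was deleted, so this does not check the knockout. Positions are given as deposited, counted from 1; the lists name no genome build.

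The 3' edges of these peaks lay mostly well short of the gene end. The median distance was 1475 bases in the KO list, with quartiles of 525 and 3649, and 1400 bases in the WT list, with quartiles of 458 and 3491. Edges at least 100 bases from the gene end belonged to 13374 KO peaks (88.0%) and 11886 WT peaks (86.7%). Distances are along the genome and include introns. A minority sat far upstream, with 859 KO peaks (5.65%) and 740 WT peaks (5.40%) ending in the upstream 50% of the gene. Their median log2 was 0.65 in the KO list and 0.77 in the WT list, against 0.69 and 0.81 for the peaks ending in the downstream 50%. The farthest belonged to Macrod2, a large gene, at 1972665 bases in the KO list and 1972515 bases in the WT list.

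The distances had a sharp step close to the gene end. In the KO list 1367 peaks (8.99%) ended 1 to 9 bases short of it, as did 1323 (9.65%) in the WT list. Each base from 1 to 9 held 152 KO peaks and 147 WT peaks on average, whereas each base from 10 to 15 held 2.5 KO peaks and 3.83 WT peaks. These near misses had the enrichment of peaks that do reach the end. Their median log2 was 0.89 in the KO list and 0.95 in the WT list, and the peaks reaching the end had the same medians to 2 decimals, 0.89 and 0.95. They are the members just inside the rule, and peaks at distance 0 are those just outside it. How the edges came to be placed there was not tested.

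A further 161 KO peaks and 144 WT peaks ran past the annotated gene end. Most extreme was a peak of Ctbp2, which encodes a transcriptional corepressor. It spanned 2722149 bases in the KO list and 2722199 bases in the WT list, and ended 2721413 bases past the gene in both. Its log2 was 1.07 in the KO list and 1.42 in the WT list. The span is given as deposited.

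**Figure D1:**
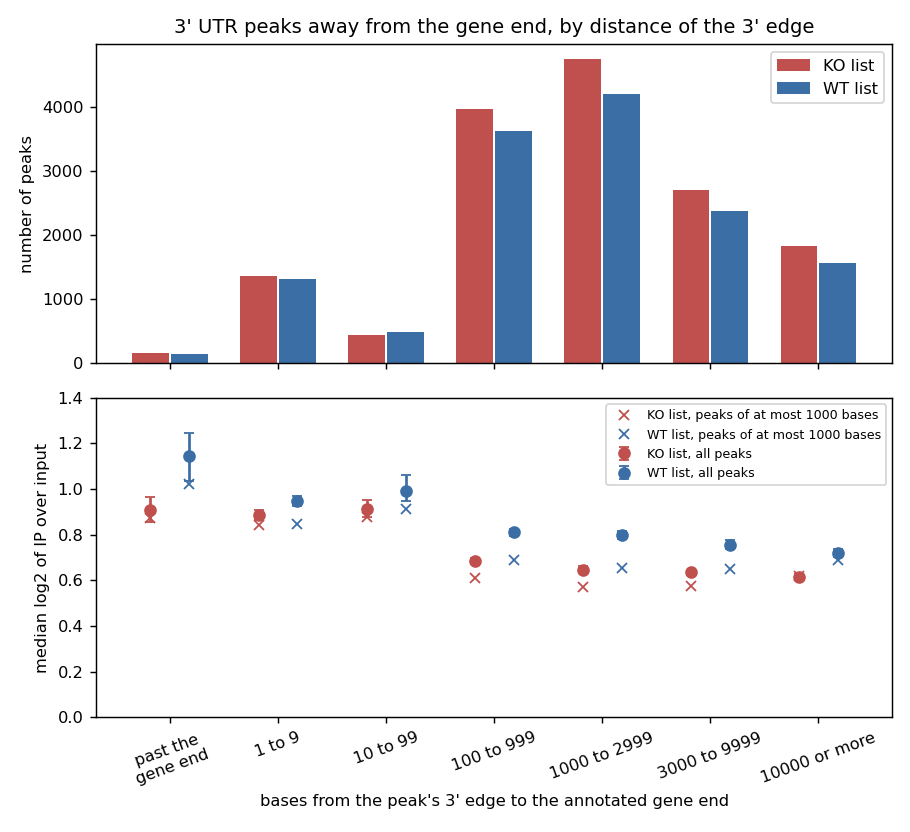
Upper panel: number of 3' UTR peaks away from the gene end (vertical axis) by the distance in bases from the peak's 3' edge to the annotated gene end (horizontal axis), for the KO and the WT list. Lower panel: median log2 of IP over input in the same classes, with 95% order-statistic intervals over peaks (circles), and the median of peaks spanning at most 1000 bases (crosses). Medians are highest in the 3 classes nearest the gene end and lower from 100 bases upward in both lists.

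Median enrichment was lower from 100 bases upward in both lists. In the KO list the median log2 was 0.89 for edges 1 to 9 bases from the end, 0.91 for 10 to 99 bases, 0.69 from 100 to under 1000 bases, 0.65 from 1000 to under 3000 bases, 0.64 from 3000 to under 10000 bases and 0.61 beyond. In the WT list the same classes had 0.95, 0.99, 0.81, 0.80, 0.76 and 0.72. Among peaks spanning at most 1000 bases, edges 1 to 9 bases from the end had 0.84 in KO and 0.85 in WT. The class from 1000 to under 3000 bases had 0.57 and 0.66, and that of 10000 bases or more had 0.62 and 0.69. The KO median was the lower one in every class. Shares of peaks of 4-fold or more did not follow the medians. They were 3.07% in KO and 11.6% in WT for 1 to 9 bases. From 1000 to under 3000 bases they were 4.09% and 14.6%, and at 10000 bases or more 2.08% and 7.88%.

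Over all 3' UTR peaks away from the gene end, the median log2 of IP over input was 0.69 in the KO list (95% order-statistic interval over peaks 0.68 to 0.69) and 0.81 in the WT list (0.80 to 0.82). The middle 50% ran from 0.51 to 0.98 in the KO list and from 0.60 to 1.32 in the WT list. For comparison, 3' UTR peaks reaching the gene end had medians of 0.89 in KO and 0.95 in WT, coding-exon peaks 0.55 in KO and 0.67 in WT, and all peaks 0.70 in KO and 0.84 in WT. The lists differed most among strong peaks. Enrichment of 4-fold or more was recorded for 587 KO peaks of this kind (3.86%) and 1750 WT peaks (12.8%). Over all peaks the shares were 3.93% in the KO list and 11.7% in the WT list, so the 3' UTR peaks away from the gene end were close to the background of each list. At 16-fold or more there were 17 of 15206 KO peaks and 78 of 13711 WT peaks of this kind. Over all peaks there were 62 of 41153 in KO and 248 of 36682 in WT.

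Peak span and enrichment went together. The median span was 475 bases in the KO list and 536 bases in the WT list, and 66.0% of the KO peaks and 62.3% of the WT peaks covered at most 1000 bases of genome. Those short peaks had median log2 values of 0.62 in the KO list and 0.70 in the WT list. Longer ones had 0.89 in the KO list and 1.32 in the WT list. An adjusted p above 0.05, as deposited, was attached to 52 KO peaks and 36 WT peaks.

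The KO peaks lay in 7673 genes and the WT peaks in 7531 genes, a mean of 1.98 and 1.82 peaks per gene. Exactly 1 such peak was found in 3783 genes of the KO list and 4011 of the WT list, and 6 or more in 213 and 118. The gene with the most was Stard9, a kinesin-family gene, with 19 peaks in the KO list and 7 in the WT list. D10Wsu102e had 12 and 13, and Nsd2, a histone H3 lysine methyltransferase gene, had 13 and 7. Nfat5, a transcription factor gene of the osmotic stress response, had 10 and 9, and Ubn2 had 9 and 10.

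In several of these genes the same stretch was divided differently in the 2 lists. In Nsd2, KO peaks of 4357 and 725 bases had log2 values of 0.45 and 0.92, and 1 WT peak of 8236 bases over both had 1.49. In Stard9, 4 KO peaks of 0.59, 1.35, 0.67 and 0.72 overlapped 1 WT peak of 6123 bases and 1.47. The KO peak of 0.59 lay mostly upstream of that WT peak, and the KO peak of 0.72 ran past its downstream edge. Across genes, 552 KO peaks (3.63%) each overlapped at least 2 WT peaks of this kind, while 1096 WT peaks (7.99%) each overlapped at least 2 KO peaks. Where a WT peak overlapped at least 2 KO peaks, the 2300 KO peaks had a median span of 475 bases and a median log2 of 0.69. The WT peaks overlapping them had a median log2 of 1.31. Any overlap of at least 1 base was counted, so a KO peak may lie only partly under the WT peak.

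**Figure D2:**
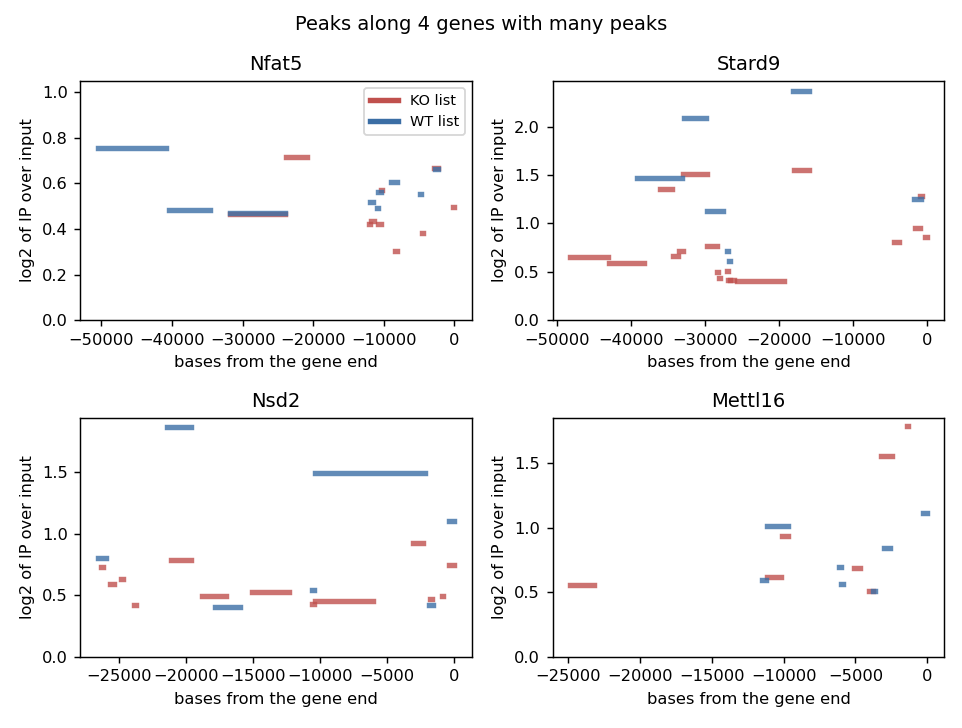
Each bar is 1 deposited 3' UTR peak away from the gene end, drawn along the gene (horizontal axis, bases from the annotated gene end, negative upstream) at its log2 of IP over input (vertical axis), for Nfat5, Stard9, Nsd2 and Mettl16. In Stard9 the KO list has 19 bars and the WT list 7; in Mettl16 each list has 7, and the KO list holds the strongest, at 1.79 against 1.11.

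Many genes carried both kinds of 3' UTR peak. Of the genes with a peak away from the end, 3011 in the KO list (39.2%) and 2597 in the WT list (34.5%) also had a peak reaching the end. Within those genes the strongest peak away from the end was set against the one reaching it. Each gene had 1 peak reaching the end and could have several away from it, so this choice favours the peaks away from it. The median difference, away minus reaching, was -0.12 on the log2 scale in the KO list (95% order-statistic interval -0.13 to -0.096) and 0.041 in the WT list (0.016 to 0.076). With an adjusted p of at most 0.001, the WT difference was 0.017 (-0.011 to 0.054), an interval that includes 0. The peak away from the end was the stronger of the pair in 39.5% of the KO genes and 53.1% of the WT genes. Among peaks of at most 1000 bases, the difference was negative in both lists, -0.24 in KO and -0.18 in WT, and the peak away from the end was stronger in 19.5% and 27.6% of genes. The WT sign was thus not the same among short peaks, and it also turned when each gene's peaks were averaged. A coding-exon peak was present in 48.3% of the KO genes and 39.8% of the WT genes, and the 3' UTR peak away from the end was the only kind of peak in 20.3% and 26.0%.

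Where a gene had several short peaks away from the end, the most downstream one tended to be the stronger. There were 2470 such genes in the KO list and 2051 in the WT list. The most downstream peak minus the most upstream had a median of 0.080 in the KO list and 0.070 in the WT list, and was positive in 63.4% and 59.9% of genes. Genes share a list and differ in expression, so these counts describe the lists. The most downstream peak could be one that ended 1 to 9 bases from the gene end. Short peaks of that class had medians of 0.84 in KO and 0.85 in WT, against 0.61 and 0.69 from 100 to under 1000 bases. The genes were not recounted without such near misses, so a trend among peaks farther from the end was not tested.

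Most of these positions had a counterpart in the other list. Of the KO peaks, 76.9% overlapped a WT peak by at least 1 base on the same strand (95% Wilson interval 76.2 to 77.5%), and of the WT peaks, 78.8% overlapped a KO peak (78.1 to 79.4%). That was less than for 3' UTR peaks reaching the gene end, at 93.2% in KO and 96.1% in WT, and more than for coding-exon peaks, at 60.1% in KO and 72.9% in WT. Over all peaks the shares were 72.9% in KO and 77.2% in WT, so the WT share was close to that background. The 3519 KO and 2911 WT peaks with no counterpart were weak, with median log2 values of 0.55 and 0.68. Among peaks of 4-fold or more, 30 of 587 in the KO list (5.11%) and 193 of 1750 in the WT list (11%) had no counterpart, beside 8.47% of the KO and 16.3% of the WT peaks of 4-fold or more over all annotations.

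The counterpart usually had the same class. It was again a 3' UTR peak away from the end for 70.1% of the KO peaks and 72.0% of the WT peaks. For 625 KO peaks (4.11%) it was a WT peak that did reach the gene end, and those KO peaks had a median log2 of 0.72 against 1.46 in their WT counterparts. For 368 WT peaks (2.68%) the KO counterpart reached the end, and the medians were 0.88 in the KO counterparts and 0.72 in the WT peaks. Il10ra, the ligand-binding chain of the interleukin-10 receptor, was of the first kind. Its KO list peak of this class had a log2 of 2.53 and stopped 925 bases before the gene end, where a separate KO peak of 0.87 reached it, and the WT list had 1 peak of 3.12 that reached it. In Klf4, a zinc-finger transcription factor gene, the KO list had a peak of 1.42 that reached the gene end and a separate coding-exon peak. The WT list had 1 peak of 2.74 over both, which stopped 25 bases short of the end. Counting every class, Klf4 had 3 KO peaks and 2 WT peaks.

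**Figure D3:**
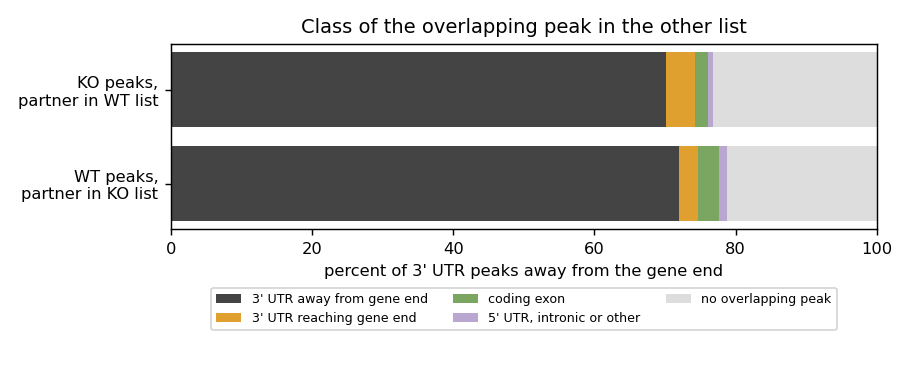
Share in percent (horizontal axis) of the 3' UTR peaks away from the gene end by the class of the peak that overlaps them in the other list, for KO peaks (upper bar) and WT peaks (lower bar). The same class accounts for 70.1% of the KO peaks and 72.0% of the WT peaks, and 23.1% and 21.2% have no overlapping peak.

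At the level of genes, 6772 had a 3' UTR peak away from the end in both lists, 901 in the KO list only and 759 in the WT list only. Most of these genes did have a peak of another class in the other list, 742 of the KO-only genes and 501 of the WT-only genes. Of the 901 KO-only genes, 637 (70.7%) had a WT peak reaching the gene end, and 159 had no WT peak at all. Of the 759 WT-only genes, 399 (52.6%) had a KO peak reaching the end, and 258 had no KO peak at all. Some genes had a peak of this kind of 4-fold or more in one list and no peak at all in the other. They numbered 17 for the KO list and 106 for the WT list. Gene symbols with a peak of this kind of 4-fold or more numbered 561 in the KO list and 1659 in the WT list. The same share over all peak classes was not computed.

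Batf, which encodes a basic leucine zipper factor that pairs with JUN proteins and acts with IRF factors, belonged to the WT-only genes. The KO list had no peak of any kind in it. Its WT peak of this kind spanned chr12:85689763-85709081 on the plus strand, 19319 bases that include introns. That peak ended 6 bases before the gene end and had a log2 of 2.92. Counting every class, the WT list held 2 Batf peaks. Socs1, an inhibitor of JAK signalling, and Il6 had no KO peak of any kind either. Socs1 had 1 weak WT peak of 0.91, and Il6 had 2 WT peaks of 0.61 and 0.99, the stronger ending 3 bases before the gene end.

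Paired peaks allow a closer comparison. A KO and a WT peak of this kind were paired when they lay on the same strand and gene and were each other's largest overlap, which gave 9600 pairs in 6535 genes. The median log2 was 0.78 in the KO peaks and 0.90 in the WT peaks. The median difference, KO minus WT, was -0.16 (95% order-statistic interval over pairs -0.17 to -0.15), and the value was lower in KO in 7073 pairs (73.7%) and higher in 2527. A KO value lower by 1 or more, which is a 2-fold lower enrichment, was found in 577 pairs (6.01%), and a value higher by 1 or more in 11 (0.115%). Over the 26084 pairs of all annotations the shares were 5.34% and 0.28%, with a median difference of -0.12. The 5318 pairs of peaks reaching the gene end had a median difference of -0.071.

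Pairs of all annotations also had a negative median difference, -0.12, and peaks of this kind are among them. Subtracting that median moves every difference up by the same amount and does not put the lists on a common scale. After the subtraction, the median difference of the 3' UTR pairs away from the gene end was -0.034 and the share lower in KO was 54.4%. Spans also differed between paired peaks. Only 719 pairs had identical coordinates, and in 1508 pairs (15.7%) the KO peak covered at most 50% of the WT span. Those pairs had a median difference of -0.39, while 1078 pairs in which the KO peak covered at least 2 times the WT span had -0.023. The 4716 pairs in which both peaks were short had -0.065, and the 4884 with at least 1 long peak had -0.41.

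Pairs with identical coordinates leave no difference in span. Their median difference was -0.052, with 446 of 719 (62.0%) lower in KO. In 17 of them (2.36%) the KO value was lower by 1 or more, and in none was it higher by 1 or more, beside 3.81% and 0.381% over identical pairs of all annotations. The size of the difference went with the strength of the pair. Strength here is the mean of the same 2 values whose difference is read, and all listed values are positive. Pairs with a low mean therefore had less room to differ. Pairs with a mean log2 below 0.75 had a median difference of -0.031 and those from 0.75 to 1 had -0.028, an interval of -0.051 to 0.0081 that includes 0. From 1 to 1.5 it was -0.082, from 1.5 to 2 it was -0.44, and from 2 to 3 it was -0.91 over 35 pairs. In the 8 identical pairs of 3 or more it was -1.07, and all 8 were lower in KO. Identical pairs reaching the gene end followed the same course, with -0.87 over 69 pairs from 2 to 3.

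**Figure D4:**
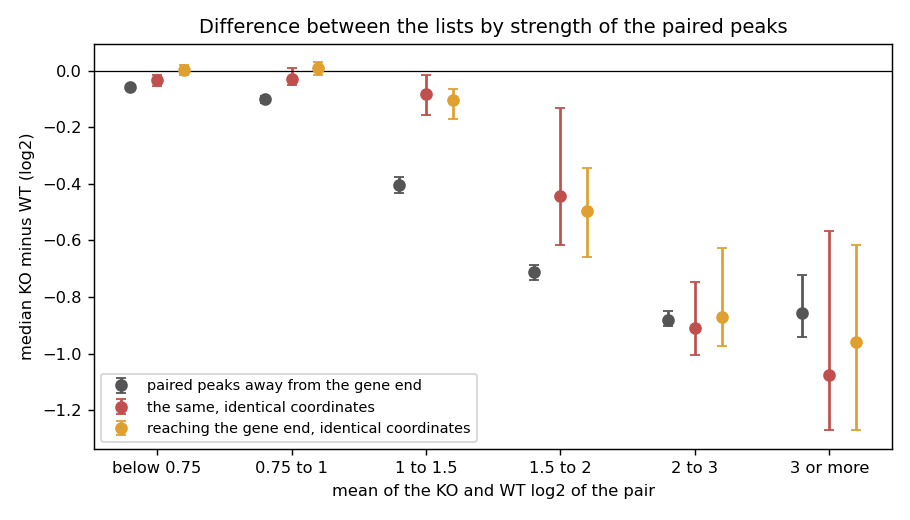
Median KO minus WT difference in log2 of IP over input (vertical axis, with 95% order-statistic intervals over pairs) by the mean log2 of the pair (horizontal axis). Grey points are all paired 3' UTR peaks away from the gene end, red points those with identical coordinates and orange points identical pairs reaching the gene end. The difference is near 0 below a mean of 1 in identical pairs and close to -0.9 between 2 and 3 in all 3 sets.

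Some identical pairs at either extreme are given here, picked after seeing their values. Pmm2, which encodes a phosphomannomutase of protein glycosylation, had a log2 of 1.52 in the KO list and 2.97 in the WT list over chr16:8662162-8662461, 6 bases before the gene end. Nsmce3, a subunit gene of the SMC5/6 complex, had 3.06 in KO and 4.33 in WT over chr7:64871527-64872997. Usp1, a deubiquitinase gene, had 2.55 and 3.71 over chr4:98930938-98935535. In each of these the KO value was more than 1 lower. Among transcription factor genes, Bhlhe40 had 1.76 in KO and 2.94 in WT over chr6:108664296-108665970, while its short pair had a difference of 0.18, so its direction turned with the peak chosen. Creb1 had 1.64 in KO and 2.83 in WT over chr1:64575015-64576548. The opposite end was narrower. Krit1, a gene of endothelial junctions, had the most positive difference among the identical pairs, with 1.54 in KO and 0.72 in WT over chr5:3841158-3841507.

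The 6 most negative differences among short pairs included that of Olfm2, which had 0.78 in the KO list and 3.57 in the WT list, both over 225 bases. Gnb1l had 1.26 over 600 bases in KO and 4.18 over 125 bases in WT, and Slc16a11 had 1.59 over 485 bases and 4.04 over 500 bases. Disp3, Lhx2 and Ttll11 were the others of the lowest 6, with differences of -2.71, -2.50 and -2.33. In Disp3 the paired KO peak had 0.89, but a further KO peak of 2.36 over 100 bases lay inside the WT peak of 3.61. Among the most positive short pairs was that of the imprinted gene Mest, with 2.04 over 200 bases in KO and 0.69 over 475 bases in WT. Prg4, Csn3, Slfn5 and Dnaja1 were also among them, with differences of 1.16, 1.04, 0.93 and 0.93.

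Several of the strongest peaks lay in genes with no other peak in either list. Gm14296 had a log2 of 7.26 in the KO list and 7.73 in the WT list. Olfr1238, an olfactory receptor gene, had 6.80 and 7.37 over the same coordinates, running 1935 bases past the annotated gene end. Tenm4 and Nlgn3, which encode neuronal cell-adhesion proteins, had 5.0 and 4.59 in KO against 7.18 and 5.86 in WT, and Aebp1 had 5.09 and 4.94. Strong peaks with no counterpart occurred in both lists. Zfp574 had a KO peak of 5.76, and H2bc12 and Amer3, with 5.49 and 4.76 in the KO list, had no WT peak at all. Jsrp1, Gm4131, St8sia1 and Megf9, with 6.53, 6.25, 6.21 and 6.14 in the WT list, had no KO peak at all. Input coverage was not used here, so how few reads lie under such values is unknown.

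The gene lists below give, for each gene, its strongest pair. Over all 6533 gene symbols with a pair, 5036 were lower in KO and 1497 higher, with a median difference of -0.25. A KO value lower by 1 or more was found in 541 of them, or 8.28%, and higher by 1 or more in 9, or 0.138%. Of the genes with any peak, 7673 of 13031 in the KO list and 7531 of 13370 in the WT list had a peak of this kind. The gene lists below also count genes with no peak, so their shares have another base. The counts of each list stand beside those backgrounds and are descriptions of 2 lists.

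**Figure D5:**
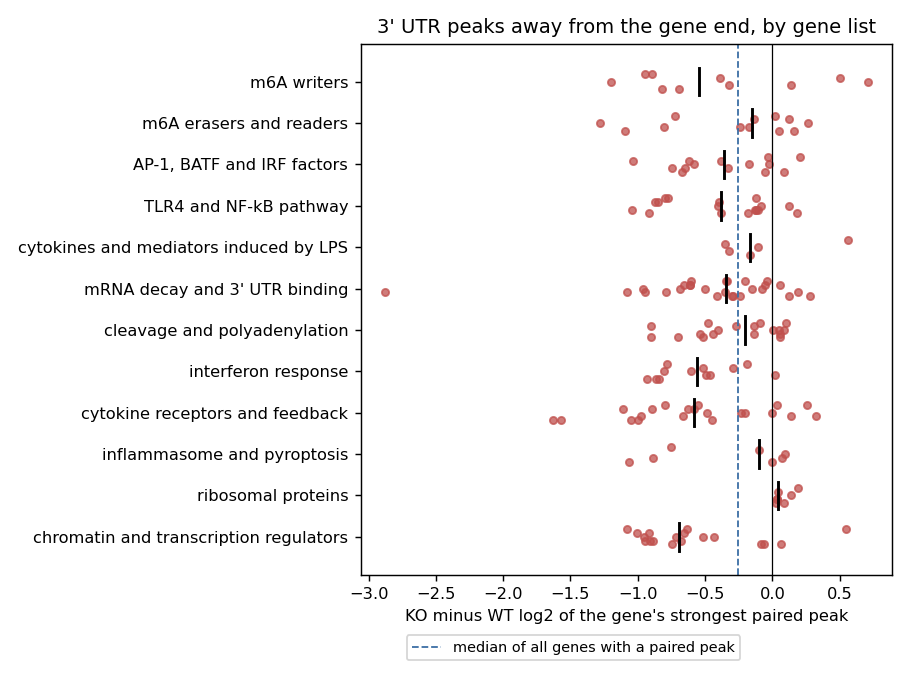
Each point is 1 gene, placed at the KO minus WT difference in log2 of IP over input of its strongest paired 3' UTR peak away from the gene end (horizontal axis), by gene list (vertical axis). Black bars are list medians and the dashed line is the median of all 6533 gene symbols, -0.25. The 7 ribosomal protein genes lie above 0 and most points of the other lists lie below it.

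Of 13 m6A writer genes, 12 had a peak of this kind in the KO list and 10 in the WT list. Of 10 with a pair, 7 were lower in KO and 3 higher, with a median of -0.54. Rbm15b, which encodes an RNA-binding adaptor of the complex, had 2.68 over 3300 bases in the KO list and 3.38 over 3500 bases in the WT list. Cbll1, the E3-ligase-like subunit Hakai, had 1.32 and 2.14, and Mettl14 had 0.49 and 0.82. Virma, the large scaffold subunit, had 0.59 and 1.79, but over 401 bases in KO and 19754 bases in WT. Besides Mettl3, the higher values in KO were those of Trmt112, with 1.07 against 0.93, and of Mettl16, a separate methyltransferase for structured RNAs, with 1.55 over 750 bases against 0.84 over 475 bases. Wtap and Rbm15 had a peak of this kind in the KO list only, of 0.90 and 1.76, while their WT peaks had other classes.

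Among 16 genes of m6A erasers and readers, 13 had such a peak in each list. Of 12 with a pair, 7 were lower and 5 higher in KO, with a median of -0.15. Of the YTH-domain reader genes, Ythdc2 was higher in KO, with 0.64 against 0.52, and the others were lower. Ythdf2, whose protein promotes decay of methylated mRNA, had 1.49 over chr4:132185862-132205520 in the KO list and 2.58 over chr4:132185862-132205595 in the WT list. Ythdf3 had 2.16 and 2.97, and Ythdf1 had 0.84 and 1.56, also over nearly equal spans. Ythdc1, the nuclear reader, had 0.47 over 150 bases in KO and 1.76 over 450 bases in WT. Another of its pairs, of 4636 and 4736 bases, had 0.83 in KO and 1.09 in WT. Of the eraser genes, Fto had the most positive difference of the list, with 0.89 in KO and 0.62 in WT, and Alkbh5 had 0.53 in KO and 0.48 in WT. Hnrnpa2b1 had 1.46 and 1.59 over identical coordinates.

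In the TLR4 and NF-kB pathway, 23 of 33 genes had such a peak in the KO list and 17 in the WT list. Among all genes with any peak, 7673 of 13031 in KO and 7531 of 13370 in WT had one. Of 17 with a pair, 15 were lower and 2 higher in KO, with a median of -0.38. The receptor gene Tlr4 had 3.0 in the KO list and 3.87 in the WT list, over 89669 bases in KO and 85165 bases in WT, most of the gene's length. Tnfaip3, which encodes the NF-kB inhibitor A20, had 2.41 over chr10:19001610-19003894 in KO and 3.21 over chr10:19001535-19003919 in WT. Traf6, the ubiquitin ligase downstream of MYD88, had 1.98 and 3.03 over 9564 and 8798 bases. Its pair of identical peaks at chr2:101700762-101701136, closer to the gene end, had 0.48 in KO and 0.42 in WT, so the direction in Traf6 turned with the peak chosen. Cyld and Nfkbib, at 0.93 and 0.79 in KO against 0.74 and 0.67 in WT, were the pair of genes with higher KO values. A peak of this kind in the KO list only was found in 6 genes, among them Irak3 at 0.71 and Nfkbie at 0.70, both of which had another WT peak. Over all genes, 901 of the 7673 KO genes (11.7%) had a peak of this kind in the KO list only.

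Of 29 genes for cytokines and mediators that LPS is known to induce, 7 had such a peak in each list. A peak reaching the gene end was present in 11 in the KO list and 16 in the WT list. Over all genes with any peak, peaks away from the end were in 7673 of 13031 KO genes and 7531 of 13370 WT genes. Peaks reaching it were in 5950 of those KO genes and 5739 of those WT genes. Of 5 with a pair, 4 were lower and 1 higher in KO. The higher one was Ptgs2, the inducible cyclooxygenase, with 1.42 over 125 bases in KO and 0.86 over 325 bases in WT. Lif, a cytokine of the interleukin-6 family, had 2.08 over 425 bases and 2.44 over 3472 bases. Il18 had 0.69 and 0.80, and Ccl7 had 0.52 and 0.68. Cxcl2 and Nos2 had such a peak in the KO list only, at 0.55 and 0.63, and Il1a and Il6 in the WT list only.

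The AP-1, BATF and IRF factors had 14 genes with a pair, of which 12 were lower and 2 higher in KO, with a median of -0.36. Fosb had 3.25 over 375 bases in the KO list and 3.58 over 850 bases in the WT list. Irf4 had 2.21 and 2.79. Irf8, a factor that microglia depend on, had 1.04 and 1.71 over 1475 and 1600 bases, and Irf3 had 1.56 and 2.30. Fosl2 had 1.26 over 3542 bases and 2.29 over 7511 bases, and its short pair had a difference of 0.044, so its direction turned as well. Irf7, with 1.31 in KO and 1.10 in WT, and Fos, with 0.78 and 0.69, were higher in KO in their pairs. Fos also had a WT peak of 1.20 outside its pair, above its only KO peak of this kind. Maf had peaks at different places in the lists, of 3.10 in KO and 1.01 in WT, and no pair.

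For cytokine receptors and feedback inhibitors, 17 of 21 genes with a pair were lower in KO and 4 higher, with a median of -0.59. Over all gene symbols with a pair, 8.28% were lower by 1 or more, and no other gene list held more than 2 such genes. In this list the KO value was lower by 1 or more in 4 of the 21. Klf2, which encodes a zinc-finger factor that restrains inflammatory genes in macrophages, had 1.39 over chr8:72320935-72321559 in KO and 3.02 over chr8:72320134-72321584 in WT. Socs6 had 2.44 over 26015 bases and 4.01 over 26065 bases, Cish had 1.02 over 500 bases and 2.07 over 2048 bases, and Dusp6 had 0.52 over 400 bases and 1.63 over 3702 bases. Klf2, Cish and Dusp6 thus had KO spans below 50% of the WT span, and Socs6 had nearly equal ones. Il6ra had 2.65 in both lists. Socs7 had 1.30 in KO and 0.98 in WT. Csf1r, the receptor gene that microglia need to survive, had such a peak of 0.76 in the KO list only, while each list had a peak reaching its end, of 1.01 in KO and 1.44 in WT.

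Of 12 interferon response genes with a pair, 11 were lower in KO and 1 higher, with a median of -0.56. Ifit2 had 1.99 over 5621 bases in KO and 2.85 over 24874 bases in WT. Gbp7 had 2.77 over 3014 bases in KO and 3.38 over 4963 bases in WT. Stat2, a subunit of the interferon-activated factor, had 1.26 over 6357 bases and 2.19 over 1972 bases. A further KO peak of Stat2, of 1.28 over 600 bases, lay inside that WT peak. Xaf1 had 0.98 in KO and 0.96 in WT in its pair, and a further KO peak of 3.29 with no WT counterpart, 39 bases before the gene end. Cmpk2 had a KO peak of 1.67 that reached the gene end, and peaks of the kind away from it in the WT list only, the strongest of 2.69.

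Of 33 genes of mRNA decay and 3' UTR binding, 29 had a peak of this kind in the KO list and 30 in the WT list. Over all genes with any peak, 7673 of 13031 in the KO list and 7531 of 13370 in the WT list had one. Of 27 with a pair, 23 were lower and 4 higher in KO, with a median of -0.35. Zfp36l2, which encodes a protein that binds AU-rich elements and promotes decay, had 1.33 over 1550 bases in KO and 2.41 over 1925 bases in WT. The decapping gene Dcp2 had 1.36 in KO and 2.33 in WT over nearly equal spans. Dcp1a, another decapping gene, had 2.06 over 1604 bases in KO and 2.85 over 4963 bases in WT. Tnrc6a, a partner of Argonaute proteins, showed how a pair depends on its edges. Its pair by largest overlap had 0.65 over 17367 bases in KO and 3.53 over 2925 bases in WT. A KO peak with the same start as the WT one and 2875 bases long had 2.50, and the short pair of the gene had a difference of 0.33. Cnot1, the scaffold of the deadenylase complex, had 1.01 over 975 bases in KO and 0.73 over 400 bases in WT.

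Of 18 cleavage and polyadenylation genes with a pair, 12 were lower and 6 higher in KO, with a median of -0.20. Papola, the poly(A) polymerase gene, had 0.62 over 1890 bases in KO and 1.52 over 2240 bases in WT. Cstf2t had 2.00 and 2.27, and Cstf1 had 1.37 and 1.91. Cpsf6, a subunit gene of the factor that favours distal poly(A) sites, had 0.75 in KO and 0.65 in WT, and Nudt21, its partner, had 0.97 and 1.11.

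The 2 lists of genes farthest apart were chromatin regulators and ribosomal proteins. Of 18 chromatin and transcription regulators with a pair, 16 were lower and 2 higher in KO, with a median of -0.70. Ep300, an acetyltransferase gene, had 1.72 over 2575 bases in KO and 2.80 over 2600 bases in WT, and its relative Crebbp had 1.77 and 2.72. Arid1a had 2.22 and 2.97, Tet2 had 1.94 and 2.88, and Kmt2a had 1.01 and 1.89. Kdm6a was higher in KO, with 1.25 over 375 bases against 0.70 over 125 bases. All 7 ribosomal protein genes with a pair were higher in KO, by a median of 0.045 and by at most 0.19, in Rplp2, with 1.0 in KO and 0.81 in WT. Rps3 had 1.28 and 1.19, and Rpl23 had 1.07 and 1.04. For the ribosomal protein list, 21 of 29 genes had a peak reaching the gene end in each list, and 10 in KO and 8 in WT had one away from it. Of all genes with any peak, 5950 of 13031 in KO and 5739 of 13370 in WT had a peak reaching the end. A peak away from it was present in 7673 of those KO genes and 7531 of those WT genes.

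Of 15 inflammasome and pyroptosis genes, 7 had a pair, 5 lower and 2 higher in KO, with a median of -0.098. Aim2, a sensor of cytosolic DNA, had 1.63 over 11037 bases in KO and 2.69 over 10050 bases in WT, both ending 1 base before the gene end. P2rx7, the ATP-gated channel gene, had 1.32 and 2.21. Nlrc4 had 2.04 over 11365 bases in KO and 2.79 over 20267 bases in WT. Nlrp3 was even, with 0.73 in KO and 0.74 in WT. Nlrp1b had a KO peak of 1.95 that reached the gene end, and a peak away from it in the WT list only, of 3.38.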

How the data were processed

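Per the labels' protocols, polyadenylated RNA was fragmented, precipitated with an m6A antibody and made into strand-marked libraries. Tools listed in the submitters' processing notes are edgeR, StringTie, HOMER, HISAT2, FastQC and fastp, without roles. How peaks were called, on which build, and whether the 3 replicates were joined first is not given in the sources used here. Per the file headers, the authors deposited for each peak a log2 of IP over input, a p-value and an adjusted p-value. The log2 and the adjusted p-value are used as the authors' own values.

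Peaks were divided by the deposited annotation, strand and gene end. Overlaps were found with bedtools 2.31.1 (at least 1 base, same strand), and all else was computed with numpy 2.4.6, pandas 2.3.3 and SciPy 1.17.1 under Python 3.11.15, with figures by matplotlib 3.10.9, after the steps were tested on simulated data. Short peaks span at most 1000 bases. A gene's strongest pair is the one with the highest mean log2. Intervals are 95% Wilson or order-statistic intervals and cover counting only. The members, the gene lists and the rule for naming genes were chosen with earlier results of these data known. The rule took, per gene list, the strongest peaks, those in 1 list only and the most negative and positive pair, and over all genes the strongest peaks, the extreme short pairs, the genes with most peaks and the farthest peaks. Some genes taken by it are not reported here. Any other gene named was picked after seeing its values. No sequence is shown, since no genome of the lists' build was used here.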

Additional observations from a re-analysis of the deposited data

How the results depend on the processing

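The shares, medians, overlaps and paired and within-gene differences over all members, and the paired differences of named genes, were recomputed with 1 choice changed at a time, where the choice applies. The other counts were not recomputed: those of gene lists, distance classes, partner classes, 4-fold peaks and genes in 1 list only. With an adjusted p of at most 0.001, 68.2% of KO and 67.7% of WT 3' UTR peaks lay away from the gene end, their median log2 was 0.74 in KO and 0.90 in WT, the share overlapping the other list was 81.2% and 80.2%, the paired difference was -0.18, 76.1% of pairs were lower in KO, and the difference within genes was -0.13 in KO and 0.017 in WT. With peaks of at most 1000 bases the same values were 68.4% and 67.0%, 0.62 and 0.70, 52.4% and 61.4%, -0.065 and 63.4%, and the difference within genes between peaks away from and reaching the end was -0.24 in KO and turned to -0.18 in WT. With edges at least 100 bases from the gene end they were 63.2% and 61.1%, 0.65 and 0.79, 75.2% and 76.8%, -0.17 and 75.8%. A reciprocal overlap of 50% gave overlap shares of 47.6% in KO and 53.3% in WT and a paired difference of -0.14, and ignoring strand gave 77.7% and 79.6%. The strongest peak of each gene had medians of 0.90 in KO and 1.11 in WT. Identical coordinates gave a paired difference of -0.052 with 62.0% lower in KO, and centring on all pairs gave -0.034 with 54.4% lower. Averaging each gene's peaks, the difference within genes was -0.19 in KO and turned to -0.051 in WT. The paired difference stayed negative in every setting named here. Of 62 named genes with a short pair, 13 turned sign. Among those whose main pair differed by at least 1, these were Bhlhe40 (0.18), Fosl2 (0.044), Tnrc6a (0.33), Traf6 (0.063) and Ubn2 (0.057), and Traf6 also turned with identical coordinates (0.063). Why these signs turned was not tested. No paired analysis was possible because the lists hold no value per library, so replicate numbers cannot be used and no library could be left out. Depth is unknown.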
